A study of Mus musculus with 2 samples.

Results

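Chromatin and DNA methylation regulators are described here by 9 genes, in wild-type mouse bone marrow cells cultured with or without the osteoclast cytokine RANKL. They are the DNA methyltransferases Dnmt3a and Dnmt1, the TET dioxygenases Tet2 and Tet3, the H3K27 methyltransferase Ezh2, the H3K27 demethylase Kdm6b and the class IIa histone deacetylases Hdac5, Hdac7 and Hdac9. The genes were chosen by symbol, with a rule that uses no measured value, but with earlier results of these data known. All 9 were found among the 14870 genes with an assembled locus. The series has 2 libraries, 1 per condition, both of genotype WT. The library named M came from cells given M-CSF, and the library named MR from cells given M-CSF and RANKL. According to the labels, RANKL was added together with M-CSF over 2 days that followed 2 days of M-CSF. The labels give these days for MR only. The culture time of M is not given, so RANKL and a difference in culture time cannot be told apart. The culture method of the study differs on the days with RANKL, and neither the age nor the number of mice is given in the labels. Every difference below is between 2 single libraries and has no replicate check, and no p-value was computed.

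DNA methyltransferases add a methyl group to cytosine in CpG. Dnmt3a sets new methylation, whereas Dnmt1 copies existing methylation to the new strand after replication, and Tet2 and Tet3 oxidise methylcytosine as a step of its removal. Ezh2 is the catalytic subunit of the Polycomb repressive complex PRC2, which trimethylates lysine 27 of histone H3, and Kdm6b removes that mark. Class IIa histone deacetylases act mainly as corepressors that bind MEF2 and other transcription factors and leave the nucleus when calcium-dependent kinases phosphorylate them. Osteoclasts form from monocyte and macrophage precursors under M-CSF and RANKL. In this lineage Dnmt3a is known for silencing antiosteoclastogenic genes such as Irf8, Ezh2 for repressing negative regulators of osteoclast formation, and Kdm6b for opening Nfatc1.

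The markers of the cells followed the labels. All 12 osteoclast markers were higher in MR, and their summed level rose from 364 to 25904 TPM (a level scaled for transcript length and depth). Among 10 macrophage markers, 5 fell by more than 1 on the log2 scale and none rose by as much, and the summed level went from 21563 to 7982 TPM. The sum was 1387 and 968 TPM over 9 neutrophil markers, 26.1 and 18.3 over 8 T and B cell markers, of which Cd3e, Cd3g and Cd8a had no locus, 22.4 and 37.7 over 8 stromal markers, 3.35 and 2.11 over 6 erythroid markers and 5.59 and 3.30 over 5 mast cell and basophil markers, in M and MR respectively. Of the erythroid markers 4, Klf1 and Alas2 among them, had no locus, and of the mast cell markers 2. The part of these other cells in the values below was not tested. In bulk RNA, fewer cells of a type and less RNA per cell cannot be told apart. The depth was 3.63 Gb of aligned bases in M and 2.98 Gb in MR.

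Promoter sequences are shown first, and no link between a motif and a value was tested. RefSeq windows of 300 bases (GRCm38.p6, from 250 bases before to 50 bases after each annotated start) were found for 8 of the 9 genes, 16 windows in all, and not for Kdm6b. An E2F-type site, written here as TTTCCCGC, TTTGGCGC, TTTCGCGC or TTTGCCGC on either strand, was found in the windows of Ezh2 and Dnmt1 and of no other of the 8 genes. It was found in 2.26% of all 32851 windows. Ezh2 and Dnmt1 had log2 ratios below 0, and so did Hdac5, Hdac7 and Hdac9, which had no match. Per gene, 704 of 27025 genes with a window had a match, and so did 6 of the 18 genes with a window in a list of S phase and mitosis genes. E2F factors are known for driving genes of DNA replication. A match is a description of letters and not a bound site, and no matches of different motifs named here overlapped in the windows of these genes. The following stretches of 30 bases hold the matches, 5′ to 3′ on the minus strand that both genes use, with the match in capitals.
Ezh2, chr6:47595010-47595039: tgggttgctgcgTTTGGCGCtcggtccggt
Dnmt1, chr9:20952824-20952853: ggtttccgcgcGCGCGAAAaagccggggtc
Dnmt1, chr9:20952574-20952603: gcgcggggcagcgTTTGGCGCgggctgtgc
In Ezh2 the match starts at base 4 after the annotated start. In Dnmt1 the first match starts 219 bases before the annotated start, on the other strand, and the second starts at base 34 after it. The 3 stretches lie inside the assembled loci of both libraries, and the upper Dnmt1 stretch begins only 7 bases past the 5′ end of the M locus and 19 bases past that of the MR locus.

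The other contrast among the promoters was in CpG, the dinucleotide that the methyltransferases and TET proteins act on. The median over all windows was 7 CpG. The window of Tet2 held 57, and only 0.110% of all windows held more. Dnmt3a had 46 and 47 CpG at its upstream starts and 18 at the start inside the gene, Ezh2 had 31, and Dnmt1 had 33, 12 and 2 at its 3 starts. The windows of Hdac9 held 0 and 3. The stretches below cover 120 bases before and 30 bases after an annotated start, and show a CpG-rich and a CpG-poor start, Dnmt3a with its 21 CpG in capitals and Hdac9 with the AP-1-type site TGANTCA in capitals.
Dnmt3a, plus strand, chr12:3806860-3807009: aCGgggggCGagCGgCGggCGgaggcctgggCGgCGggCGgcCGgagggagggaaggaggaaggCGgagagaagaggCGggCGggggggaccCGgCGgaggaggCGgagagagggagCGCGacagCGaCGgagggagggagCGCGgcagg
Hdac9, minus strand, chr12:34528860-34529009: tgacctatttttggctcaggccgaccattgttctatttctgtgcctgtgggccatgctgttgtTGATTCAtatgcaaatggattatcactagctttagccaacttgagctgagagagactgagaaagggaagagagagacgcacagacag
The Hdac9 stretch held 2 CpG. AP-1 is the dimer of Fos and Jun proteins, and its site was found in 7.81% of all windows. Besides Hdac9, where it starts 57 bases before the annotated start, it was found among these genes only in a window of Hdac7. The GC box GGGCGG was found 6 and 7 times in the upstream Dnmt3a windows and in 35.7% of all windows. The E box CACGTG was found in a window of Hdac5 and in that at the internal start of Dnmt3a, and in 7.15% of all windows. The NFAT core GGAAA, a short motif found in 61.3% of all windows, was present in windows of Dnmt1, Hdac7 and Hdac9.

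The levels of the 9 genes spanned more than an order of magnitude in both libraries. In M the order from the highest TPM was Dnmt3a, Dnmt1, Hdac5, Ezh2, Tet3, Hdac7, Tet2, Hdac9 and Kdm6b. In MR it was Dnmt3a, Hdac5, Dnmt1, Tet3, Tet2, Ezh2, Kdm6b, Hdac7 and Hdac9. Neighbours whose intervals for counting error overlapped were Hdac7 with Tet2 and Tet2 with Hdac9 in M, and Tet2 with Ezh2 and Kdm6b with Hdac7 in MR. Dnmt3a stood above 93.9% of the genes tested in M and 96.0% in MR. Hdac9 stood above 42.5% in M and 12.5% in MR. The TPM order in MR thus placed Dnmt1, Ezh2, Hdac7 and Hdac9 lower than in M, and Hdac5, Tet2, Tet3 and Kdm6b higher. By coverage per Gb of aligned bases, a read depth per base, Tet3 instead went from rank 4 to 6. Dnmt1 stayed at 1 and Ezh2 at 5, Dnmt3a went from 2 to 3, and the rest moved as in TPM.

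**Figure D1:**
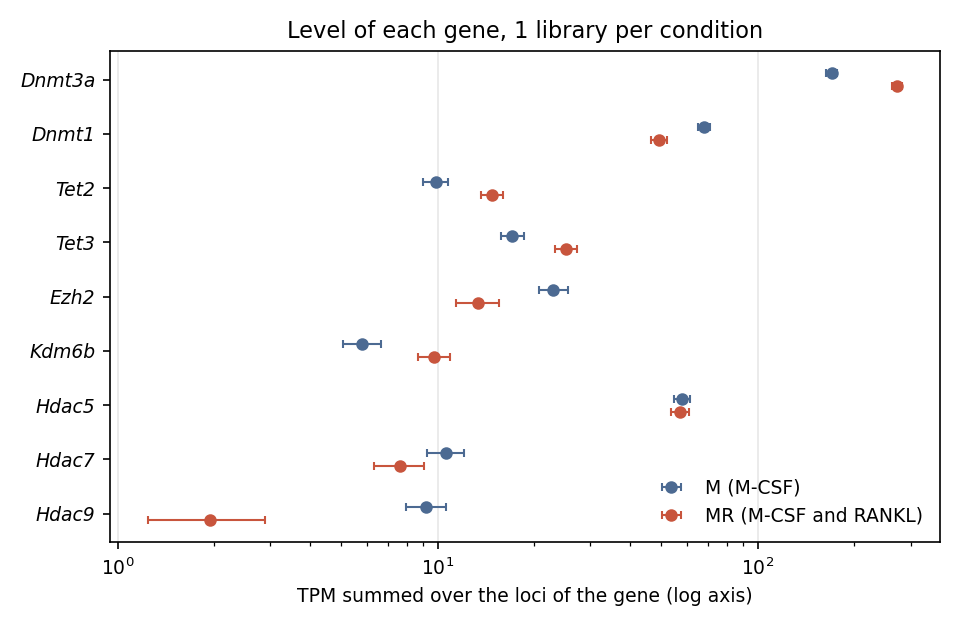
Level of each of the 9 genes (horizontal axis, TPM summed over the loci of the gene, log scale) in the M library (blue) and the MR library (red). Bars are 95% intervals for counting error alone, from estimated read pairs; there is 1 library per condition. In TPM Dnmt3a was the highest in both libraries, at 170 and 272, and Hdac9 showed the widest gap, at 9.21 and 1.94. In coverage per Gb Dnmt3a was not the highest in either library.

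Only Hdac9 passed a log2 ratio of 1 in size between MR and M, with 1 added to each TPM. This is 1 of 9 genes lower and 0 of 9 higher. Over all 13449 genes that had their own locus and reached 1 TPM in a library, 34.5% passed 1 in either direction, 21.3% as higher and 13.2% as lower. The log2 ratio was above 0 for 4 of the 9 genes and below 0 for 5, against 59.5% and 40.5% of all genes. The median was -0.02 over the 9 genes and 0.21 over all genes tested. Because the median of all genes was not at 0, a scaling to the median of ratios, which shifts MR by 0.19 on the log2 scale before 1 is added, was set beside it. Under it all genes tested split into 2375 higher and 2132 lower, compared with 2858 and 1781 in TPM. None of the 9 genes changed the sign of its log2 ratio under that scaling. In coverage per aligned Gb, 0 of the 9 genes were higher by more than 1 and 2, Dnmt3a and Hdac9, were lower, next to 15.7% and 10.1% of all genes tested. At a lower threshold in TPM, a 1.5-fold difference in either direction, Dnmt3a and Kdm6b were higher and Ezh2 and Hdac9 were lower. This threshold was passed in TPM by 53.9% of all genes tested.

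Dnmt3a, the de novo methyltransferase (ENSMUSG00000020661.15, chromosome 12, 3806007 to 3914443, plus strand), had the highest TPM of the 9. Its locus had 170 TPM in M and 272 TPM in MR, a ratio of 1.60 and a log2 ratio of 0.67. The 95% interval for counting error, from an estimated 2215 and 2798 read pairs, was 0.59 to 0.76. These read pairs were estimated from FPKM, so the interval does not take in the lower listed coverage given below. The library with RANKL thus had the higher TPM. The listed coverage, a read depth per base, went the other way. Per Gb of aligned bases it was 27.9 in M and 13.3 in MR, with a log2 ratio of -1.02. By coverage per Gb Dnmt3a ranked below Dnmt1 in M, at 31.3, and below Dnmt1 at 21.7 and Hdac5 at 21.2 in MR. The coverage was 35.4% in M and 11.0% in MR of the coverage that the FPKM of the same locus corresponds to, and only 0.981% of all genes tested had a log2 ratio in TPM that exceeded the one in coverage by as much as Dnmt3a.

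The ends of the Dnmt3a locus showed where its reads were listed. The locus began at 3806985 in M, 45 bases before the start of transcript Dnmt3a-201, and at 3806510 in MR, 12 bases inside the start of Dnmt3a-202, so that the 5′ ends were 475 bases apart. It ended at 3909773 in M and 3909295 in MR, 4670 and 5148 bases short of the annotated 3′ end of the gene. Bases of the last exon were also listed under other entries. In M a locus of the minus strand, from 3907610 to 3914400, spanned 6791 exon bases of Dnmt3a and held 47.3 TPM, and MR had no such locus. An entry named Dnmt3aos, whose listed position of 3909293 to 3912244 falls over the last exon of Dnmt3a in GRCm38, held 49.6 TPM in M and 110 TPM in MR, and the MR locus of Dnmt3a ended 2 bases into it. The annotated Dnmt3aos, a gene antisense to Dnmt3a, lies elsewhere in GRCm38, and the loci given to it had 13.8 TPM in M and 6.38 TPM in MR. Whether the library kept the strand is not stated, and without strand the reads of Dnmt3a and of an antisense partner cannot be told apart. With the minus-strand locus added, Dnmt3a had 217 TPM in M, the same 272 TPM in MR and a log2 ratio of 0.32. With the entries with gene names whose spans overlap its exons added as well, it had 270 TPM in M and 386 TPM in MR and a log2 ratio of 0.51. Such entries may hold reads of other genes or repeat reads of the loci. All 3 sums in TPM were higher in MR, by amounts that depended on which entries of the last exon were counted.

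Dnmt1, the maintenance methyltransferase (ENSMUSG00000004099.16, chromosome 9, 20907209 to 20959888, minus strand), had 67.9 TPM in M and 49.3 TPM in MR. The log2 ratio was -0.45, with an interval of -0.56 to -0.35 from 1995 and 1143 read pairs, and the coverage per Gb gave -0.51, from 31.3 in M and 21.7 in MR. Dnmt1 was the member for which the units agreed most closely, since its listed coverage was 99.6% and 99.2% of that implied by FPKM. Its loci had nearly the same ends in both libraries, 12 bases apart at the 5′ end and 3 at the 3′ end, and both began close to the start of Dnmt1-205, 7028 and 7016 bases inside the outermost annotated start. The ratio of Dnmt3a to Dnmt1 was higher in MR in TPM and lower in coverage per Gb.

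Partners and relatives of these enzymes changed in both directions. Uhrf1, which brings Dnmt1 to newly replicated DNA, fell from 40.0 to 12.5 TPM, with a log2 ratio of -1.61. Dnmt3l, a cofactor of Dnmt3a without catalytic activity of its own, fell from 3.98 to 0.754 TPM. Its MR value is a low one that many genes share in that library. Dnmt3b, the other de novo enzyme, rose from 1.58 to 4.66 TPM, a log2 ratio of 1.13, and stayed far below Dnmt3a in both libraries. Under the median-of-ratios scaling Dnmt3b was at 0.98 and in coverage at 0.83, below the threshold. Of the 18 genes in the DNA methylation list, 17 had a TPM of at least 1, of which 1 was higher and 3 were lower by more than 1, and the list median was 0.16. Gadd45a, a stress gene linked to demethylation, was the third of the lower genes and fell from 6.32 to 2.65 TPM, just past the threshold, with a log2 ratio of -0.85 in coverage.

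Tet2 (ENSMUSG00000040943.12, chromosome 3, 133463679 to 133545139, minus strand) had 9.87 TPM in M and 14.8 TPM in MR. The log2 ratio was 0.54, with an interval of 0.37 to 0.71 from 498 and 590 read pairs. Coverage per Gb was 4.56 in M and 5.81 in MR (log2 ratio 0.29). The 5′ ends of the Tet2 loci were 884 bases apart. In M the locus began 4 bases before the start of Tet2-202, and in MR it began 35 bases beyond the start of Tet2-205, the outermost start of the gene. The span of the M locus touched 13 and that of the MR locus 14 of the 14 exons in the merged annotation.

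Tet3 (ENSMUSG00000034832.15, chromosome 6, 83362373 to 83459084, minus strand) had 17.1 TPM in M and 25.2 TPM in MR (log2 ratio 0.53) with an interval of 0.37 to 0.69. This nearly equalled Tet2, but unlike Tet2 the coverage per Gb of Tet3 went the other way, with 7.87 in M, 5.21 in MR and a log2 ratio of -0.51. In MR the listed Tet3 coverage was 46.5% of that implied by FPKM, compared with 99.4% in M. An entry named Tet3 was listed in addition, with a span over its exons, 20.4 TPM in M and 19.5 TPM in MR. With all entries added whose spans overlap the exons, Tet3 had 37.6 TPM in M and 44.8 TPM in MR. The log2 ratio was then 0.25, outside the counting interval of the locus alone. Whether this sum counts the same reads more than once was not tested. Dnmt3a and Tet3 were the 2 of 9 genes whose log2 ratios in TPM and in coverage had opposite signs, which 7.88% of all genes tested had. Tet1 had no locus in either library.

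The TET proteins and the Jumonji demethylases such as Kdm6b use 2-oxoglutarate from the Krebs cycle. Of 10 genes listed around this cofactor, 8 rose by more than 1 and none fell by as much, with a list median of 1.80. In coverage 7 rose by more than 1. The list is not one of supply alone, since Ogdh, which consumes 2-oxoglutarate, is in it. Ogdh rose from 88.0 to 283 TPM, with a log2 ratio of 0.48 in coverage. The amount of 2-oxoglutarate was not measured. Idh3a, a subunit of the mitochondrial isocitrate dehydrogenase, rose from 13.7 to 126 TPM, and Idh2, its NADP-dependent relative, from 42.2 to 164 TPM. Fh1, which converts fumarate, an inhibitor of these dioxygenases, to malate, rose from 32.1 to 143 TPM. Cytosolic Idh1 had 85.0 and 81.9 TPM. Tet2, Tet3 and Kdm6b themselves were above 0 and below 1 in log2 ratio.

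The list of S-adenosylmethionine supply, the methyl donor of Dnmt1, Dnmt3a and Ezh2, moved in both directions. Among its 11 genes with a TPM of at least 1, 3 rose and 2 fell by more than 1. The folate enzyme Mthfd1 rose from 6.83 to 33.5 TPM, Shmt2, the mitochondrial serine hydroxymethyltransferase, from 21.2 to 57.6, and Ahcy, which clears the product of methylation, from 16.6 to 37.4.

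Ezh2 (ENSMUSG00000029687.16, chromosome 6, 47530139 to 47595341, minus strand) had 23.0 TPM in M and 13.4 TPM in MR. The log2 ratio was -0.74, with an interval of -1.01 to -0.47 from 357 and 164 read pairs. Coverage per Gb was 6.77 in M and 5.47 in MR (log2 ratio -0.26), so that the direction held in both units and the size did not. The loci differed at the 5′ end. In MR the locus began at 47595045, 13 bases inside the start of Ezh2-215 and next to the E2F-type match shown above. In M it began at 47636900, 41559 bases beyond the outermost annotated start, and the stretch added there overlaps no annotated gene on the minus strand and Gm44141 on the plus strand. The 3′ ends were 6 bases apart.

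Kdm6b (ENSMUSG00000018476.7, chromosome 11, 69398508 to 69413675, minus strand), which acts against Ezh2 on H3K27, had 5.80 TPM in M and 9.75 TPM in MR. Its log2 ratio was 0.66, with an interval of 0.41 to 0.91 from 216 and 287 read pairs, and coverage per Gb gave 0.38, from 2.68 and 3.81. Kdm6b was the lowest of the 9 in M, whereas in MR it was above Hdac7 and Hdac9. Its loci began 6657 and 6636 bases beyond the annotated start, 21 bases apart. An entry named Dnah2, the next gene, had a listed span that takes in Kdm6b, with 3.07 and 4.82 TPM. Whether its exons overlap those of Kdm6b was not tested. With it added Kdm6b had a log2 ratio of 0.66 as before. The ratio of Ezh2 to Kdm6b was lower in MR in TPM and in coverage.

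The other genes of PRC2 and H3K27 methylation were spread around 0. Of the 14 genes with Ezh2 and Kdm6b, 6 had a log2 ratio below 0, among them Phf19, an accessory subunit named after its value was seen, with 7.18 and 3.90 TPM and the same log2 ratio of -0.74 as Ezh2. By more than 1, 3 of the 14 were higher and none were lower, with a list median of 0.35. The core subunits had 38.3 and 36.8 TPM for Eed and 18.9 and 29.0 TPM for Suz12, and the paralog Ezh1 had 29.2 and 24.3 TPM, so that Ezh1 exceeded Ezh2 in both libraries. The accessory subunits Jarid2 and Aebp2, which guide PRC2 to chromatin, rose from 12.4 to 41.8 TPM and from 14.0 to 47.5 TPM. Epop, another accessory subunit, had no locus in M and 7.63 TPM in MR. Kdm6a, the paralog of Kdm6b, had 11.7 and 11.3 TPM. In PRC1, the complex that binds H3K27me3, 1 of 18 genes was higher and 2 were lower: Cbx7, a chromodomain subunit, rose from 1.51 to 26.0 TPM, while Phc2 fell from 81.4 to 33.5 TPM, a log2 ratio of -1.26 that was -0.60 in coverage, where none of the 18 were lower by more than 1.

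Dnmt1, Ezh2 and Uhrf1 were set beside genes of S phase and mitosis, since all are known to be expressed in cycling cells. Of the 21 genes of that list, 20 had a log2 ratio below 0 and 6 were below -1, with a median of -0.74, and the summed level was 1179 TPM in M and 516 TPM in MR. Pcna, the sliding clamp that also tethers Dnmt1, fell from 518 to 121 TPM, E2f2 from 14.8 to 4.37 TPM, Mcm2, a subunit of the replicative helicase, from 31.2 to 11.6 TPM, and the mitotic kinase Aurkb from 18.7 to 6.87 TPM. In coverage Aurkb was at -0.54 and no longer past -1. In TPM the log2 ratio of Ezh2, -0.74, was at the list median and that of Dnmt1, -0.45, was nearer to 0, whereas in coverage the list median was -0.68, Ezh2 was at -0.26 and Dnmt1 at -0.51. The part of cell cycling in the values of Dnmt1 and Ezh2 was not tested.

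**Figure D2:**
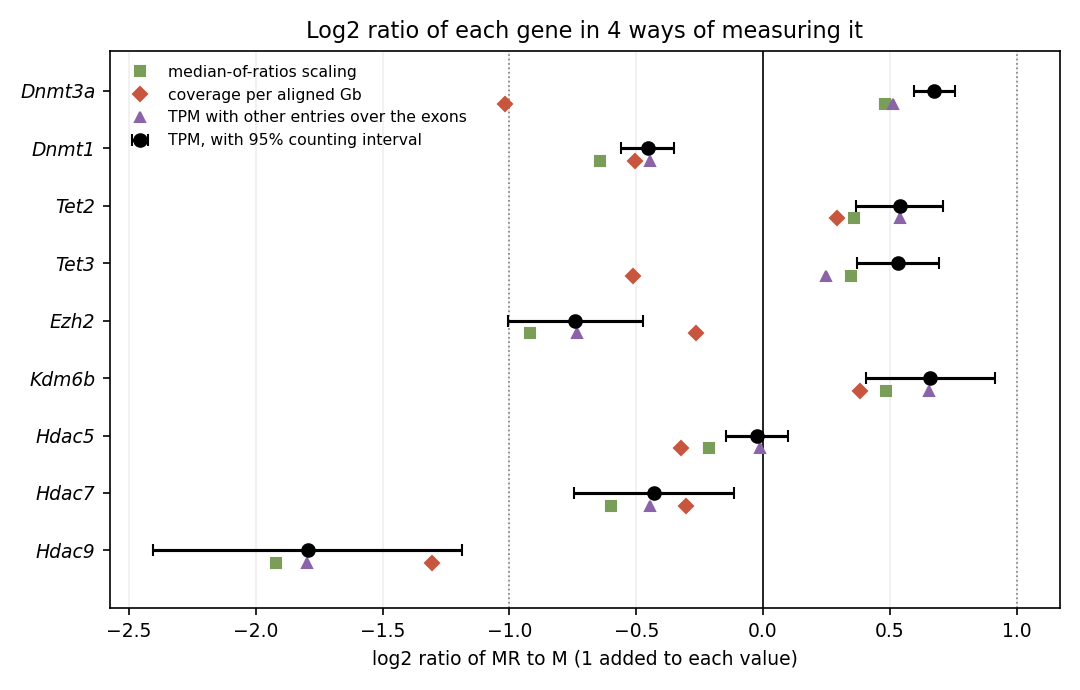
Log2 ratio of MR to M for each gene (horizontal axis, 1 added to each value) from TPM (black, with the 95% interval for counting error), after median-of-ratios scaling (green squares), from coverage per aligned Gb (red diamonds) and from TPM with the other entries added whose spans overlap the exons (purple triangles). Dotted lines mark -1 and 1. Dnmt3a and Tet3 had coverage values on the other side of 0, at -1.02 and -0.51, and Hdac9 was beyond -1 in each of the 4.

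Hdac5 (ENSMUSG00000008855.17, chromosome 11, 102194432 to 102230166, minus strand) was the main class IIa deacetylase. It had 58.1 TPM in M and 57.1 TPM in MR (log2 ratio -0.02) with an interval of -0.15 to 0.10 from 1222 and 949 read pairs, which includes 0. The coverage per Gb was 26.9 in M and 21.2 in MR (log2 ratio -0.32), and the median-of-ratios scaling gave -0.21. An entry named Ubtf, the neighbouring gene, had a listed span over part of Hdac5, with 15.3 and 15.7 TPM. With it added the Hdac5 log2 ratio was -0.01. The loci of Hdac5 ended at the same base in both libraries and began 12 bases apart.

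Hdac7 (ENSMUSG00000022475.19, chromosome 15, 97792664 to 97844502, minus strand) had 10.6 TPM in M and 7.62 TPM in MR. The log2 ratio was -0.43, with a wide interval of -0.75 to -0.11 from 220 and 125 read pairs, and the coverage per Gb gave -0.30, from 4.15 and 3.17. Both loci began within 9 bases of the start of Hdac7-201 or Hdac7-212, 13017 and 13029 bases inside the outermost annotated start. Their spans touched 26 of 27 exons. The start that carries the AP-1-type match lies further inside the gene. Apart from the level, the Hdac7 loci were alike.

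Hdac9 (ENSMUSG00000004698.10, chromosome 12, 34047580 to 34917095, minus strand) had the largest difference of the 9 genes. It had 9.21 TPM in M and 1.94 TPM in MR, a level 4.75-fold higher in M, and the log2 ratio was -1.80. The interval was -2.40 to -1.19, from an estimated 187 read pairs in M and 24 in MR, so that it lay below -1 while its width reflects few reads in MR. The coverage per Gb, 3.60 in M and 0.862 in MR, gave -1.31. The direction and the side of the threshold were the same in TPM, in coverage and after median-of-ratios scaling.

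The assembled extent of Hdac9 also differed. M had 2 loci on the gene. The longer one, from 34248398 to 34714496, spanned 466099 bases, touched 18 of the 33 merged exons and held 7.31 TPM, and the other, from 34051792 to 34078545 at the 3′ end of the gene, touched 2 exons and held 1.89 TPM. MR had a single locus from 34371708 to 34390265. It spanned 18558 bases, 3.98% of the long M locus, and touched 3 exons. These are the last exons of the short transcript Hdac9-201, which ends before the 3′ exons of the longer transcripts. The span of the MR locus took in 2773 of the 4413 bases of Hdac9-201, 2431 of them in its last exon, and ended 211 bases short of its end. The span of the long M locus took in all 4413 bases of Hdac9-201 and 69.9% of the bases of the longer Hdac9-204. Loci are listed by start and end only, so annotated exons inside a span need not hold reads. The locus of M began 96003 bases beyond the start of Hdac9-202, and none of the loci began at the promoter window shown above, which lay within the long M locus and outside the MR locus. MR had an estimated 24 read pairs for the gene, and why its other exons had no locus was not tested.

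**Figure D3:**
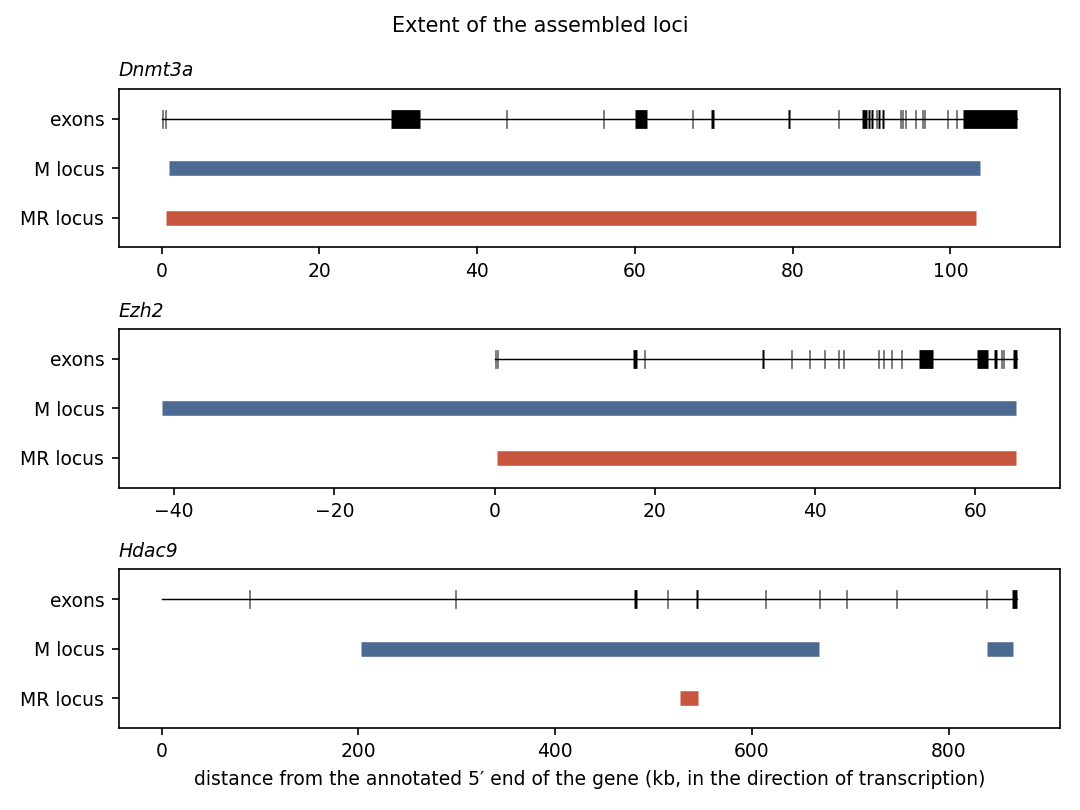
Extent of the assembled loci of Dnmt3a, Ezh2 and Hdac9 in M (blue) and MR (red) below the merged annotated exons (black), by distance from the annotated 5′ end in kb in the direction of transcription. The Dnmt3a loci stop inside the last exon, the M locus of Ezh2 begins 41559 bases before the annotated start, and the MR locus of Hdac9 covers 18558 bases in the middle of the gene.

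Hdac4 completes the class and is not among the 9. It had 8.96 TPM in M and 4.24 TPM in MR (log2 ratio -0.93). Hdac4 passed -1 in coverage, at -1.19, and after median-of-ratios scaling, at -1.08. All 4 class IIa genes thus had log2 ratios below 0, with a median of -0.68, also in coverage and after median-of-ratios scaling, although only Hdac9 passed -1 in TPM. Their summed level was 86.9 TPM in M and 70.9 TPM in MR, and Hdac5 was the largest term in both. The classes I, IIb and IV had 6 of 7 genes above 0 and a median of 0.31, with 2 past 1. Hdac2, a nuclear class I enzyme of the Sin3 and NuRD complexes, rose from 30.8 to 71.4 TPM, and Hdac11, the class IV enzyme, from 1.96 to 5.22 TPM. Whether the classes differ could not be tested with 1 library per condition. Under median-of-ratios scaling Hdac2 was at 0.99 and Hdac11 at 0.91, and in coverage Hdac11 was at 0.80. Among 7 sirtuins, which are NAD-dependent deacetylases, the mitochondrial Sirt5 and Sirt3 rose, from 4.87 to 17.5 TPM and from 10.2 to 26.7 TPM. In coverage Sirt5 was at 0.76, below the threshold, and Sirt3 at 1.95.

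The partners of class IIa deacetylases changed in both directions, with 1 of 18 genes higher and 3 lower by more than 1 in TPM. The MEF2 factors that they repress were unequal. Mef2c fell from 9.16 to 3.12 TPM, Mef2a had 53.1 and 35.5 TPM and Mef2d had 38.5 and 66.6 TPM. In coverage their log2 ratios were -1.11, -0.12 and 1.08, so that Mef2d passed 1 there. Among the kinases that send class IIa deacetylases out of the nucleus, Camk1d fell from 20.8 to 6.64 TPM and Prkd3 from 9.96 to 4.36 TPM, whereas Sik1 rose from 7.92 to 18.2 TPM. In coverage Prkd3 was at -0.93 and Sik1 at 0.96, both short of the threshold, and after median-of-ratios scaling Sik1 was at 0.92. None of the 17 genes tested in the list of corepressors of HDAC complexes and none of the 12 histone acetyltransferases or 3 BET proteins passed a log2 ratio of 1 in TPM. In the corepressor list 1 gene, Sin3a at 1.25, passed it in coverage, and Sin3b and Mta3 were at -1.06 and -1.03 after median-of-ratios scaling, with Sin3b at 0.89 in coverage. These 3 were named after their values were seen.

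Genes whose repression or activation in osteoclasts has been tied to these regulators were among the large changes. The list holds 11 transcription factors, which were chosen with their known direction in osteoclasts in mind. Of these, 5 rose and 5 fell by more than 1. The repressors of the osteoclast programme Irf8 and Bcl6 fell from 155 to 25.2 TPM and from 35.1 to 12.1 TPM, and Pparg, a nuclear receptor, from 39.6 to 9.67 TPM. Prdm1, which encodes the repressor Blimp1, rose from 3.96 to 82.7 TPM, Nfatc1, the main osteoclast transcription factor, from 25.5 to 325 TPM, Myc from 3.92 to 40.1 TPM and Fos, a subunit of AP-1, from 55.0 to 211 TPM. In TPM each of these 7 genes had a larger log2 ratio in size than any of the 9 but Hdac9. In coverage the log2 ratio of Fos was 0.66, short of the threshold and smaller in size than that of Dnmt3a at -1.02.

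The 9 genes were also read against the chromatin lists as a whole. Of 165 listed chromatin genes, 162 had a TPM of at least 1, of which 20 were higher and 6 were lower by more than 1. That is 16.0%, next to 34.5% over all genes tested, and the median was 0.21 in both. Without the 9 genes it was 25 of 153, or 16.3%. The split of the calls depended on the scaling, since median-of-ratios scaling gave 12 higher and 14 lower. Coverage gave 16 higher and 9 lower. Among the genes named below, Kmt2c was at 0.89, Kmt2d at 0.83 and Nsd2 at 0.99 after median-of-ratios scaling. Among the lists of histone marks, the one with the most calls was that of H3K36, H3K79 and H4K20 methylation, with 6 of 15 higher and none lower, a share of 40.0% next to the 34.5% of all genes. In coverage 5 were higher and 1 lower, and after median-of-ratios scaling 3 were higher and 1 lower. The list also holds the arginine methyltransferases Prmt1 and Prmt5, so the share is not one of these lysine marks alone. In it Kmt5c, an H4K20 methyltransferase, rose from 11.7 to 59.9 TPM, Dot1l, the H3K79 methyltransferase, from 33.4 to 101 TPM, Prmt1, an arginine methyltransferase, from 37.5 to 89.8 TPM and Nsd2, an H3K36 methyltransferase, from 20.9 to 48.7 TPM, with a log2 ratio of 0.88 in coverage.

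H3K4 methylation had 3 of 15 genes higher and none lower. The H3K4 demethylase Kdm5b rose from 5.64 to 17.1 TPM, and the methyltransferases Kmt2c and Kmt2d, from 12.4 to 27.3 TPM and from 15.3 to 32.0 TPM. In the H3K9 list of 18 genes only the demethylase Kdm3a passed 1, rising from 11.5 to 27.6 TPM, with a log2 ratio of 0.96 in coverage. In SWI/SNF, the remodelling complex, 1 of 15 genes passed 1, and Smarcd3, a subunit known from muscle and heart, rose from 0.624 to 39.1 TPM, the largest log2 ratio of all listed chromatin genes in TPM at 4.62. The M value of Smarcd3 lay near 0.595 TPM, a low value that many genes share in that library. In coverage the log2 ratio of Smarcd3 was 2.05, below that of Cbx7 at 2.52, Kmt5c at 2.20 and Epop at 2.13.

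**Figure D4:**
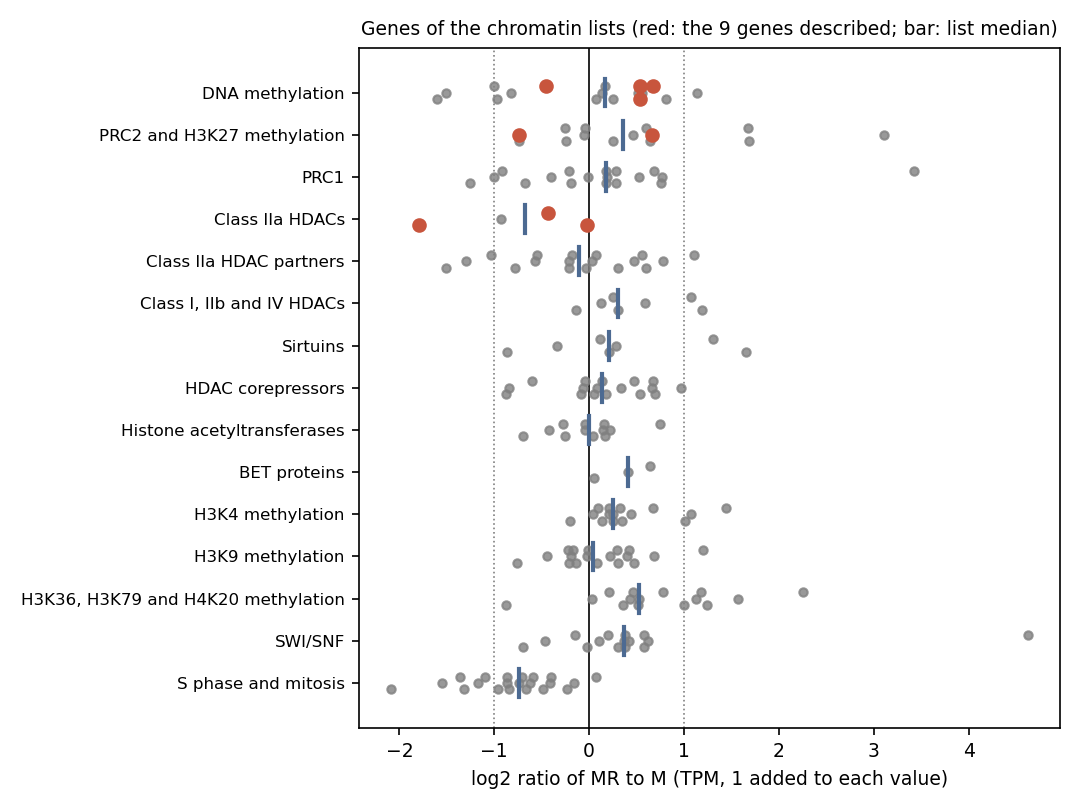
Log2 ratio of MR to M (horizontal axis, TPM with 1 added) for the genes of 15 lists, 1 point per gene with a TPM of at least 1, with the 9 genes described in red and the list median as a blue bar. Dotted lines mark -1 and 1. The class IIa points all lie below 0 with a median of -0.68, the S phase and mitosis points lie below 0 but for 1 gene, and most other lists have medians between 0 and 0.52.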

How the data were processed

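RNA-seq of 2 libraries was analysed. The authors trimmed paired reads of 150 bases with Trim Galore, used HISAT2 for alignment to GRCm38 (mm10) and StringTie with GENCODE vM27 for quantification. The vM27 positions are on GRCm39. The deposited tables hold coverage (a read depth signal, not scaled for library size), FPKM, and a TPM score that sums to 1000000 over the assembled loci, with entries with gene names listed in addition. Entries with gene names were not used, except where stated. There they were matched by their listed span and not by their exons, so they may hold reads of other genes or repeat reads of the loci. Each assembled locus was given to the GENCODE vM21 gene with the most exon bases, at least 50, on its strand, and TPM was summed per gene. Loci are listed by start and end only, so exons touched and exon bases are annotated ones within that span, with or without reads. A locus that also covered 50% of another coding gene counted as shared. A gene without a locus was set to 0. Log2 ratios used a pseudocount of 1 and a TPM of at least 1 in a library. Read pairs were estimated from FPKM, the shortest CCDS transcript and aligned bases, taken as 300 bases a pair, and gave 95% Wilson intervals, and exact Poisson intervals for levels, both for counting error only. Aligned bases were read from the commonest coverage/FPKM quotient, which 32.1% of 7930 loci with an FPKM above 5 in M and 35.0% of 8311 in MR had. In M 15665 of 19422 loci with 95.4% of the TPM were given to genes, and in MR 16523 of 19922 with 96.9%.

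The members, lists and rules were chosen with earlier results of these data known. In each list the genes named were those past 1 with a TPM of at least 5 in a library, at most 4 a direction, plus fixed paralogs and partners and, chosen after their values were seen, Idh1. Some genes that this rule names are not reported here. The assignment was tested on simulated data. Promoters came from RefSeq. Figures were drawn with matplotlib 3.10.9 and values computed with scipy 1.17.1, pandas 2.3.3 and numpy 2.4.6 in Python 3.11.15. Alternatives were other pseudocounts, filters, thresholds, units and scalings, and 2 that added entries over the members' exons were chosen after seeing the data.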

Additional observations from a re-analysis of the deposited data

How the results depend on the processing

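No paired analysis was possible because each condition has 1 library, and no library could be left out. Of 90 values of the 9 genes under alternatives, 75 moved by less than the counting interval, 13 moved further with the same sign and 2 reversed. The 2 that reversed were Dnmt3a at -1.02 and Tet3 at -0.51 with coverage per aligned Gb, and the cause was not tested. With coverage, 2 of the 9 genes were lower by more than 1, Dnmt3a and Hdac9, and of all genes tested 2106 were higher and 1359 lower. In TPM, 0 of the 9 genes were lower at a log2 threshold of 2. At a 1.5-fold difference in TPM 2 were higher and 2 lower. The listed chromatin genes numbered 12 higher and 14 lower after median-of-ratios scaling, 4 higher and 0 lower at a threshold of 2, 39 higher and 21 lower at 1.5-fold, and 3 lower with a TPM of at least 10. All genes numbered 956 higher and 520 lower at a threshold of 2, 4490 and 2755 at 1.5-fold, and 1599 and 981 with a TPM of at least 10. The fewer calls at a higher threshold or filter follow from its construction. The Hdac9 log2 ratio ranged from -2.19 to -1.31 over the alternatives. The number of read pairs, which is estimated and not listed, limits Hdac9 and Hdac7 most.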
